A study of Mus musculus with 6 samples.

Results

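Cytosolic ribosomal protein genes were examined in the ganglion cell layer of the mouse retina 6 hrs after optic nerve crush. Members were taken by gene symbol, from the Rpl and Rps genes together with Rpsa, Rplp0, Rplp1 and Rplp2, leaving out the Rps6k kinases, pseudogene symbols and binding proteins. Each gene was followed by its brightest probe set, kept where the mean intensity over the 6 arrays was at least 40. By symbol 49 genes were found and 46 were kept, of 15103 genes with a kept probe set, 24 of them in the large subunit and 22 in the small subunit. Probe sets that the annotation gives several symbols were left out, and 106 tested ones carried a ribosomal protein symbol. Ribosomal proteins measured only by such probe sets are not among the 46. Rpl3l, Rpl39l and Rps16 had mean intensities of 34.8, 8.83 and 2.28 by their brightest probe set and fell under the minimum. Of the 46 genes, 4 (Rpl7l1, Rpl22l1, Rps4l and Rps27l) are paralogs of a core ribosomal protein.

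The crush group held 3 eyes of male C57BL/6J mice, taken 6 hrs after the optic nerve was crushed with forceps behind the globe, and the control group held 3 eyes, each the uninjured contralateral eye. The age of the mice was not given in the sources used here. About 6000 cells of the ganglion cell layer were laser captured from each eye and gave about 60 ng of total RNA, which was amplified and hybridized to 1 array per eye. Crush eye 1 was paired with control eye 1, and likewise for eyes 2 and 3. Because each sample was a mix of neurons, glia and vessel cells, fewer cells of a type and less RNA per cell cannot be told apart.

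Ribosomal proteins and ribosomal RNA together build the large subunit, which joins amino acids, and the small subunit, which reads the mRNA. Their mRNAs are among the most abundant of the cell, and most begin with a run of pyrimidines at the cap, the terminal oligopyrimidine or TOP motif, through which TOR signaling controls how well they are translated. An array measures the amount of the mRNA and not its translation. In injured retinal ganglion cells TOR activity, often followed by phosphorylation of the small subunit protein Rps6, is known for its part in axon regrowth.

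The start sites of several members are shown because the pyrimidine run is a feature that the choice of genes did not use. Sequences are from RefSeq on build GRCm38.p6 and read on the strand of the gene, with 20 bases before the annotated start and 20 bases from it onwards. Capitals mark the longest run of C and T that begins with C and holds at least 6 bases, and sequences all in lower case hold none in this window. Where a gene had several annotated starts, the start with the longest run is shown.
Rps25 at chr9:44407694-44407733, plus strand: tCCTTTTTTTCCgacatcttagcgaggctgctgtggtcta
Rps27l at chr9:66946066-66946105, plus strand: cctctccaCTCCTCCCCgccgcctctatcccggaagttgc
Rps6 at chr4:86857348-86857387, minus strand: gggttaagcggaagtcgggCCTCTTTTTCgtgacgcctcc
Rpl13a at chr7:45128726-45128765, minus strand: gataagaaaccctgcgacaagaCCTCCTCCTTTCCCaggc
Rpl4 at chr9:64173367-64173406, plus strand: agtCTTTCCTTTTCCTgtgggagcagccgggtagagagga
Rpl35 at chr2:39005112-39005151, minus strand: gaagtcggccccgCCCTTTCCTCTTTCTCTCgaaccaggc
Rps3a1 at chr3:86142649-86142688, minus strand: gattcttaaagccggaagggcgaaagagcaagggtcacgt
Rpl41 at chr10:128549149-128549188, minus strand: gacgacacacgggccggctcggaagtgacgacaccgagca
The run begins 1 base before the annotated start in Rps6 and 3 bases into the transcript in Rpl13a, and 19 bases before the annotated start in Rps25. In Rps25, Rps27l and Rpl4 the run ends before the annotated start and so lies outside the annotated transcript. A run was counted anywhere in the window, so the counts below are not counts of TOP motifs at the cap. Of the 46 genes, 40 had an annotated start in the table, on 14 chromosomes, and 27 of these (67.5%) held such a run, against 8859 of all 27025 genes in the table (32.8%). Genes with a run had a median log2 fold change of -0.030 (17 of 27 lower) and those without one had -0.027 (9 of 13 lower), so the groups lay at nearly the same value.

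Median intensity per array was 131 to 154 in crush eyes and 141 to 143 in control eyes. The array of crush eye 2 stood apart from the others, with 1331 probe sets lower than on each other array by over 1 on the log2 scale, and that of crush eye 3 had 255 probe sets higher by the same margin. A single probe set of a ribosomal protein, one of Rpl41, was among those 255, and 0 were among the 1331. Of 12 markers of retinal ganglion cells 11 were measured, and their summed intensity was 65862, 52262 and 59556 in crush eyes, against 59065, 60552 and 59711 in control eyes. With 3 eyes per group the precision is limited. The limma p values rest on the spread between these eyes, moderated toward a spread shared by all tested probe sets.

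The ribosomal protein mRNAs followed here were close to the control level 6 hrs after crush. The median log2 fold change, crush over control, was -0.034 for the 24 large subunit genes and -0.031 for the 22 small subunit genes, against -0.0057 for all tested probe sets and -0.022 for the 5887 other genes with a mean intensity of at least 1000. In all, 15 genes were higher and 31 lower, most of them by little, and 40 of 46 (87.0%) lay within 0.2 of no change on the log2 scale, against 79.5% of those 5887 genes. The members are brighter than that comparison set, and at a mean of at least 5000 the order was the opposite, with 28 of 31 members (90.3%) within 0.2 against 828 of 872 other genes (95.0%). Of the 15 members under that mean, 12 (80.0%) lay within 0.2. The call of a difference was an unadjusted p under 0.05 in limma with the pair as a block. By this rule 1 of 46 genes was higher after crush (Rps25) and 0 were lower, where 5.16% of the 33169 tested probe sets were called higher and 2.51% lower. Calls were rarer among brighter genes. Of the 5887 other genes with a mean of at least 1000, 59 were called higher and 27 lower, together 1.46%, against 2.17% of the members. Benjamini-Hochberg adjusted p values from limma were under 0.05 for 0 probe sets of the whole array (2546 had an unadjusted p under 0.05). The standard error of a member's log2 fold change was 0.13 to 0.33 with a median of 0.14. Rps20, chosen after its values were seen, had a standard error of 0.13 with pair differences of -0.011, -0.024 and -0.023. Its limma p value thus reflects mostly the shared spread and not that of its own eyes.

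**Figure D1:**
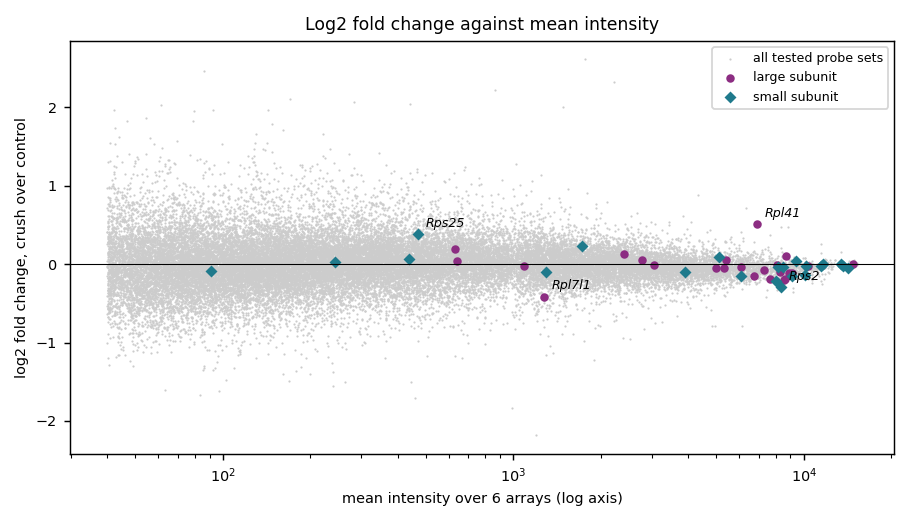
Log2 fold change, crush over control, against mean intensity over the 6 arrays (log axis), for the 33169 tested probe sets (grey) and the 24 large and 22 small subunit genes. Most members sit at the bright end and near 0, while Rpl41 at 0.51, Rps25 at 0.39, Rps2 at -0.29 and Rpl7l1 at -0.41 lie farthest from it.

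The probe sets of these genes were bright, with a median at percentile 98.5 of all tested probe sets by mean intensity. Intensities of different probe sets do not rank their mRNAs, since each probe set binds with its own strength. At a mean of 10000 or more stood 167 tested probe sets, 13 of them of members. For 9 of the 13 this was the probe set that stood for the gene, and the log2 fold changes of these 9 ran from -0.14 to 0.0049. Brightest in the large subunit were Rpl13a, Rpl38 and Rpl7, and in the small subunit Rps29, Rps28 and Rps18. Rpl13a, known in human cells for a part in silencing inflammatory mRNAs outside the ribosome, had 14361, 14851 and 15039 in crush eyes, against 14683, 14708 and 14838 in control eyes. Rps18, a protein of the small subunit head, had 13435 ± 262 in crush eyes, against 13459 ± 323 in control eyes (SD, n = 3 per group). The groups overlapped in both genes, at log2 fold changes of 0.00048 and -0.0025. The coefficient of variation among eyes of a group was lower for the brighter members. Members with a mean of at least 5000 had a median of 5.70% in crush eyes and 2.88% in control eyes, where the 872 other genes of that brightness had 6.79% and 4.996%. The 15 members under 5000 had 9.39% in crush eyes and 9.12% in control eyes, where the 5015 other genes with a mean of 1000 to 5000 had 10.6% and 9.07%, and several of the 15 lay under 1000. Whether the scanner's upper range narrowed the brightest values was not tested.

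Rps25 was the single member past the unadjusted threshold. Rps25 is a small subunit protein that some viral mRNAs need to start translation from internal sites. Its intensity was 521, 568 and 511 in crush eyes, against 405, 419 and 399 in control eyes. Every crush eye lay above every control eye, and the log2 differences in the 3 pairs were 0.36, 0.44 and 0.36. The log2 fold change was 0.39 with a standard error of 0.13 (limma unadjusted p = 0.032, adjusted p = 0.642, n = 3 pairs). A single probe set stood for this gene, and the call was lost when pair 1, 2 or 3 was left out, with unadjusted p values of 0.124, 0.0706 and 0.0959, and on quantile-normalized arrays (0.0607) and on arrays scaled to one median (0.0653), while the fold change stayed between 0.33 and 0.42.

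Groups that did not overlap were counted without a test. Crush eyes were all above control eyes in 3 of 46 genes (7.29% of all tested probe sets) and all below in 3 (5.25%). Of the 5887 other genes with a mean of at least 1000, 251 were all above and 206 all below. Besides Rps25, those above were Rps27l and Rpl37, and those below were Rps14, Rpl19 and Rpl37a; of these, Rpl37, Rps14, Rpl19 and Rpl37a were chosen after their values were seen. Rps27l, a paralog of Rps27 that p53 induces, had 1769, 2007 and 1799 in crush eyes, against 1682, 1423 and 1665 in control eyes. Its log2 fold change was 0.23 with a standard error of 0.16 (limma unadjusted p = 0.205), and all 3 of its probe sets were higher. In another of them the groups overlapped, with a log2 difference of -0.0036 in pair 3. Rps14, which lies at the mRNA platform of the small subunit, had 9773, 9765 and 9370.4 in crush eyes, against 10462, 10582 and 10709 in control eyes. The crush eyes of Rps14 were the lower ones in every pair, by a log2 fold change of -0.14 with a standard error of 0.13 (limma unadjusted p = 0.354). By the methods' paired t-test on the deposited intensities its unadjusted p was 0.0412 (adjusted p = 0.818). Rpl37, a large subunit protein, differed by 0.051 on the same scale, and Rpl19 and Rpl37a by -0.19 and -0.20. The other probe set of Rps14 had 8667, 7289 and 7987 in crush eyes, against 8759, 9003 and 8099 in control eyes, with the groups overlapping. The other probe sets of Rpl37a overlapped too. The brighter of these had 2453, 2456 and 1876 in crush eyes, against 2422, 2261 and 2567 in control eyes.

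**Figure D2:**
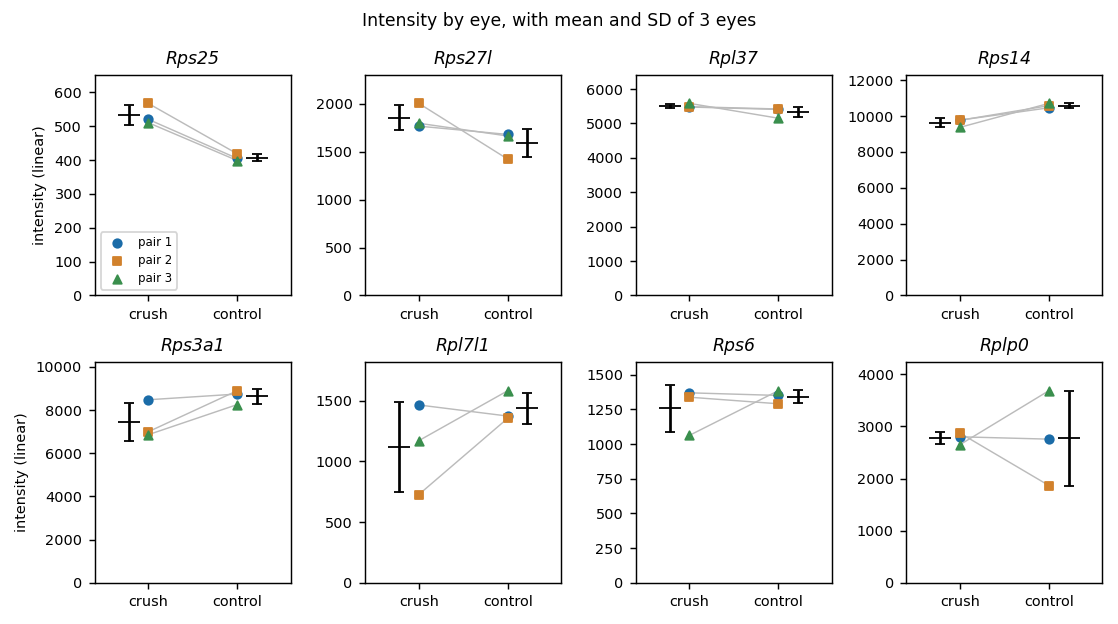
Intensity (linear axis from 0) in crush and control eyes for 8 genes, with lines joining the eyes of a pair and bars giving mean and SD of 3 eyes. Crush eyes lie above all control eyes for Rps25, Rps27l and Rpl37 and below them for Rps14, while the groups overlap for Rps3a1, Rpl7l1, Rps6 and Rplp0.

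Among large subunit proteins with a known role, the stalk proteins that bring elongation factors to the ribosome were Rplp0 and Rplp2. Rplp0 had 2800.2, 2873 and 2648 in crush eyes, against 2755, 1865 and 3686 in control eyes. The control eyes spanned the whole range of the crush eyes, and the log2 difference was 0.62 in pair 2 and -0.48 in pair 3. Rplp2 was steadier, at 3024 ± 28.5 in crush eyes, against 3055 ± 323 in control eyes (SD, n = 3 per group). Rpl11, which binds Mdm2 when it is free of the ribosome, had 5979.7 ± 238 in crush eyes, against 6139 ± 314 in control eyes (SD, n = 3 per group), and its log2 fold change was -0.037. Rpl22 and its paralog Rpl22l1, which can stand in for each other, had log2 fold changes of -0.0088 and -0.054. Rpl39, a short protein that lines the exit tunnel, and Rpl38, which in mouse embryos is needed to translate some Hox mRNAs, had -0.018 and -0.030, and the dim probe sets of Rpl12 and Rpl14, at mean intensities of 629 and 642, had 0.19 and 0.038. All of these had overlapping groups, and none had a limma unadjusted p under 0.05.

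Rpl7 and its paralog Rpl7l1 both had negative fold changes, of unequal size. Rpl7, a core protein that touches ribosomal RNA, had 9497, 8075 and 8666 in crush eyes, against 9714, 9499 and 9105 in control eyes, a log2 fold change of -0.11 with a standard error of 0.14. Rpl7l1, a relative of a yeast protein of large subunit precursors, had 1465, 727 and 1170.5 in crush eyes, against 1373, 1356 and 1583 in control eyes. Crush eyes 2 and 3 were low and crush eye 1 was not, which gave a log2 fold change of -0.41 with a standard error of 0.22 (limma unadjusted p = 0.117, adjusted p = 0.652). Without pair 1 the fold change was -0.67 with an unadjusted p of 0.0403. All 3 probe sets of Rpl7l1 were lower, by 0.092 to 0.41 in size on the log2 scale.

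Small subunit proteins with a known role also lay near the control level. Rps6, the main substrate of S6 kinase, had 1369.8, 1338 and 1062.5 in crush eyes, against 1351, 1291 and 1385 in control eyes. Only crush eye 3 was low, and the log2 fold change was -0.10 with a standard error of 0.16. Rps3, which lies where mRNA enters, had 11666 ± 315 in crush eyes and 11623 ± 58.4 in control eyes, and Rpsa, also called the laminin receptor, had 8017 ± 213 in crush eyes, against 8234.5 ± 658 in control eyes (SD, n = 3 per group). Rps4x, encoded on the X chromosome, had 9320.3, 8303 and 8334 in crush eyes, against 9914, 9675 and 9178.5 in control eyes, and was lower in every pair with a log2 fold change of -0.15. Its paralog Rps4l, by a dim probe set, had 0.024. Rps19, in which mutations cause Diamond-Blackfan anemia in humans, had 496, 597 and 278 in crush eyes, against 414, 374 and 463 in control eyes. Crush eyes held both the highest and the lowest value of Rps19, and its pair differences were 0.26, 0.67 and -0.74 on the log2 scale. Rps27, by a probe set at a mean intensity of 91.0, had -0.093, and Rps28, Rps29 and Rps18 had -0.019, -0.050 and -0.0025.

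Lower values in every pair were found for 14 of 46 genes and higher values in every pair for 3, where 14.2% of all tested probe sets were lower and 17.6% higher in all 3 pairs. The 14 were shared evenly by the subunits, 7 in the large (Rpl4, Rpl6, Rpl7, Rpl7a, Rpl8, Rpl19 and Rpl37a) and 7 in the small (Rps3a1, Rps4x, Rps14, Rps20, Rps24, Rps28 and Rps29). All were among the 31 members with a mean intensity of at least 5000, of which 24 were lower, while 0 of the 15 dimmer members were lower in every pair. The lowest log2 fold change of the 14 was that of Rps3a1, a small subunit protein, with 8479, 6994 and 6859 in crush eyes, against 8744, 8901 and 8257 in control eyes. Crush eye 1 of Rps3a1 lay within the control range and the other crush eyes below it, at a log2 fold change of -0.22 with a standard error of 0.14 (limma unadjusted p = 0.184). Rpl4, a protein of the exit tunnel wall, had 9102, 6989.6 and 8083 in crush eyes, against 9227, 9129 and 8991 in control eyes, and a log2 fold change of -0.19. In Rpl4 crush eye 2 was the lowest by far, as it was in Rps2, which lay at 9073, 5403 and 8392 in crush eyes, against 9032, 9079.8 and 9207 in control eyes. Rps2 was not lower in pair 1. The genes of this paragraph other than Rpl7, Rps4x, Rps28 and Rps29 were chosen after their values were seen. Over the 46 genes the array of crush eye 2 held the lowest value of 17, and that of control eye 3 the highest value of 22. Among the 5887 other genes with a mean of at least 1000, crush eye 2 held the lowest value of 2313. Control eye 3 held the highest value of 870 of them.

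**Figure D3:**
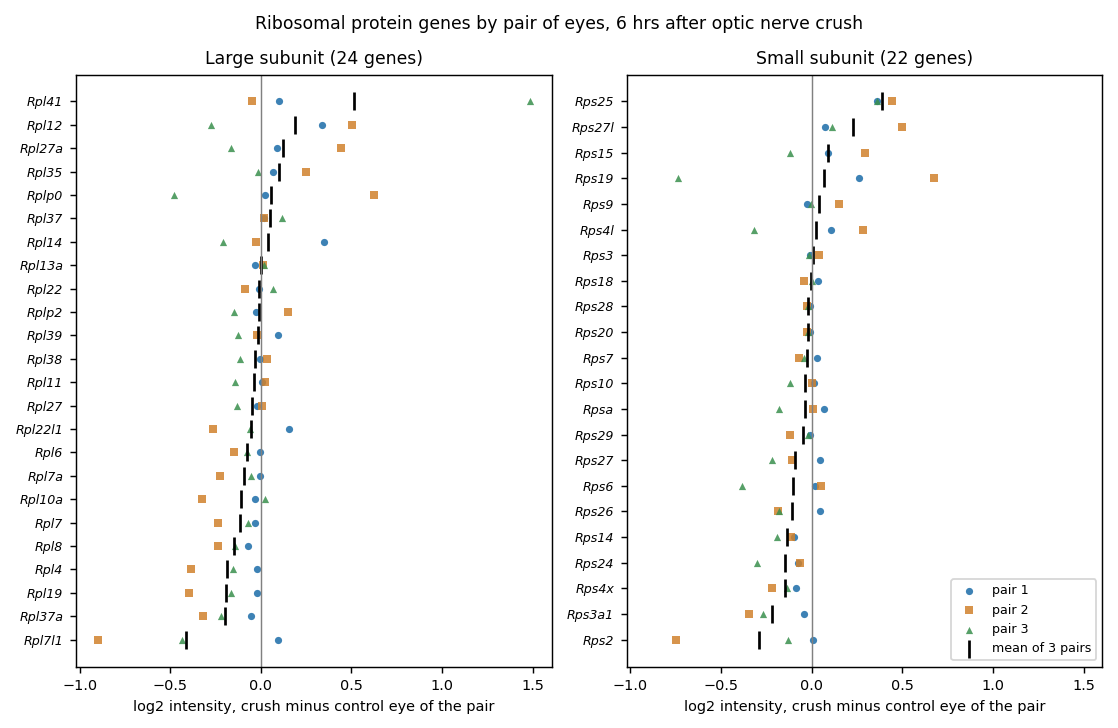
Log2 intensity, crush minus control eye, in each of 3 pairs for the 24 large and 22 small subunit genes, ordered by the mean of the pairs (black bar). Most symbols lie near 0, the triangles of pair 3 sit mainly left of 0, and Rpl41 in pair 3 (1.48) stands alone at the right.

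The pairs differed in where the family lay. The median log2 difference of the 46 genes lay at 0.0067, -0.027 and -0.13 in pairs 1, 2 and 3, while the 5887 other genes with a mean of at least 1000 had 0.024, -0.12 and 0.029. In pair 3, 38 of 46 ribosomal protein genes were lower after crush (82.6%), against 42.9% of those other genes, 19 of 24 in the large and 19 of 22 in the small subunit. In pair 2 the shares were 56.5% of the members and 67.4% of the other genes, and in pair 1 they were 47.8% and 41.7%. Control eye 3 was above both other control eyes in 27 of 46 members (58.7%) and in 33.2% of the other genes, and crush eye 3 was below both other crush eyes in 17 members (37.0%) and in 24.0% of the other genes. Of the 15 members with a mean under 5000, 14 were higher in pair 1 and 13 lower in pair 3, where of 14185 other genes under that mean 52.6% were higher in pair 1 and 42.3% lower in pair 3. The mean of 5000 was chosen after the values were seen. Across the 46 genes the differences of pairs 1 and 2 had a Spearman correlation of 0.442, and those of pair 3 had -0.049 with pair 1 and 0.041 with pair 2, as a description over genes that share their arrays.

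Markers of several cell types also differed between these eyes. The 6 rod markers measured had a summed intensity of 43105, 36721 and 42485 in crush eyes, against 47242, 35118 and 26960.0 in control eyes. Cone markers, 5 of 5 measured, summed to 7817, 5797.5 and 8976 in crush eyes, against 9782, 7205 and 4251 in control eyes. Control eye 3 was the lowest for both photoreceptor lists and the highest for 22 of 46 ribosomal protein genes. Microglia markers, 7 of 7 measured, summed to 3529, 3790.5 and 4447 in crush eyes, against 3389.9, 3928 and 4899.8 in control eyes. Control eye 3 was the highest for this list, and 6 of the 7 genes were lower in pair 3. Muller cell markers, 8 of 8 measured, summed to 39816, 41466 and 39025 in crush eyes, against 44652, 45428 and 40748 in control eyes. All 8 were lower in pair 3, with a median log2 difference of -0.097. Pigment epithelium markers, 3 of 5 measured, summed to 2522, 1923 and 7741 in crush eyes, against 632, 608 and 1114 in control eyes, with crush eye 3 the highest. Lens markers, 4 of 5 measured, summed to 8303, 2264 and 3741 in crush eyes, against 12786, 4581 and 4165 in control eyes. The lens sums were lower after crush in every pair. Astrocyte markers, 4 of 5 measured, had a summed intensity that was higher in every pair. It was 6015 to 6894 in crush eyes, against 4953 to 6030.5 in control eyes. Of these 4 genes, 3 were higher in every pair and 1 was lower in every pair. Bipolar markers, 5 of 7 measured, summed to 12892 to 13861 in crush eyes, against 14250 to 17224 in control eyes. Sums of the 9 amacrine markers and of 5 of 6 endothelial markers overlapped between the groups, and 0 of 3 erythrocyte markers were measured. The control probe sets for Gapdh and Actb at the 3′ end were also divided by those at the 5′ end. For Gapdh the ratio was 7.54 in crush eye 3, against 5.13 in control eye 3. For Actb it was 8.55 in crush eye 3, against 6.65 in control eye 3. Both ratios were higher on the crush array in pair 3 only. In pair 1 that of Actb alone was higher, and in pair 2 neither was. The part of the cell types and of these ratios in the difference of pair 3 was not tested. The median of the members without pair 3 was -0.0081 for the large and -0.010 for the small subunit.

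**Figure D4:**
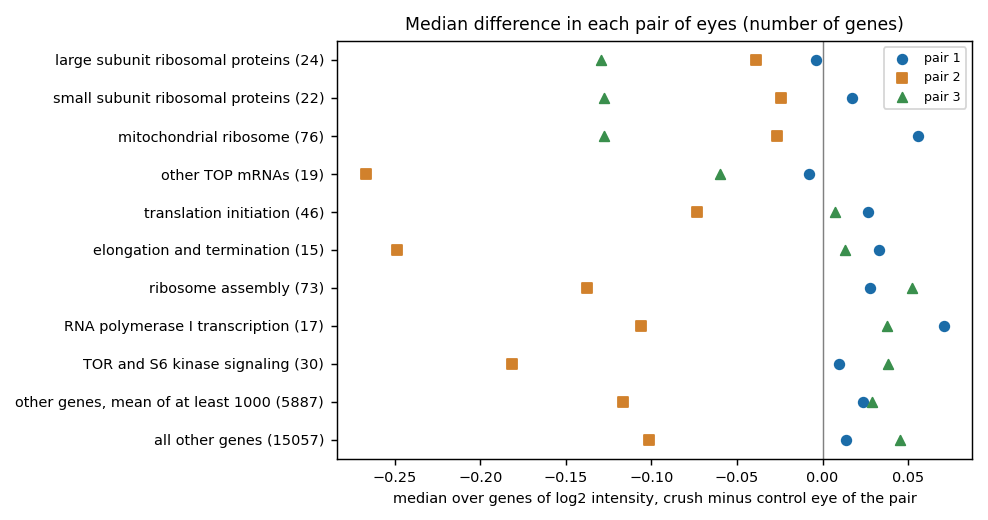
Median over genes of the log2 intensity difference, crush minus control eye, in each of 3 pairs, for the 2 subunits and 9 other groups of genes with their numbers. In pair 3 the ribosomal proteins (-0.13 in both subunits) and the mitochondrial ribosome (-0.13) lie left of the other genes (0.045), while in pair 2 they lie right of most other groups.

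Different probe sets of 1 gene did not always give the same answer. Of 23 members with 2 or more tested probe sets, 13 had all of them in one direction and 10 had both directions, with a median range of 0.12 on the log2 scale and a range over 0.3 in 5 genes. Rpl41, which encodes one of the shortest known proteins, had the highest fold change of all members at 0.51, with a standard error of 0.33 (limma unadjusted p = 0.177). Its brightest probe set had 5559.6, 5084 and 15038 in crush eyes, against 5183, 5258 and 5375 in control eyes. Its next brightest probe set had 5920.2, 5689 and 5207 in crush eyes, against 5776, 5461 and 5553 in control eyes. Crush eye 3 was the highest of the 6 eyes in the brightest probe set and the lowest in the next one. The third probe set had 1863, 1684 and 1932 in crush eyes, against 1586, 1592.5 and 1735 in control eyes. The dimmest had 1100.1, 1318 and 1332 in crush eyes, against 878, 713 and 1172 in control eyes, a log2 fold change of 0.47 with a standard error of 0.19 (limma unadjusted p = 0.0532). Both dimmer probe sets were higher in every pair with overlapping groups, and crush eye 3 was the highest eye in each, though by far less than in the brightest. The log2 fold changes of all 4 were above 0, from 0.00055 to 0.51. In pair 3 alone the log2 differences of the 4, from the brightest to the dimmest, were 1.48, -0.093, 0.16 and 0.18. Rpl13a had a single high value in a control eye, where another of its 4 probe sets had 3397, 3731 and 3707 in crush eyes, against 3373, 18745 and 3855 in control eyes, while its brightest probe set had nearly equal values in all 6 eyes.

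**Figure D5:**
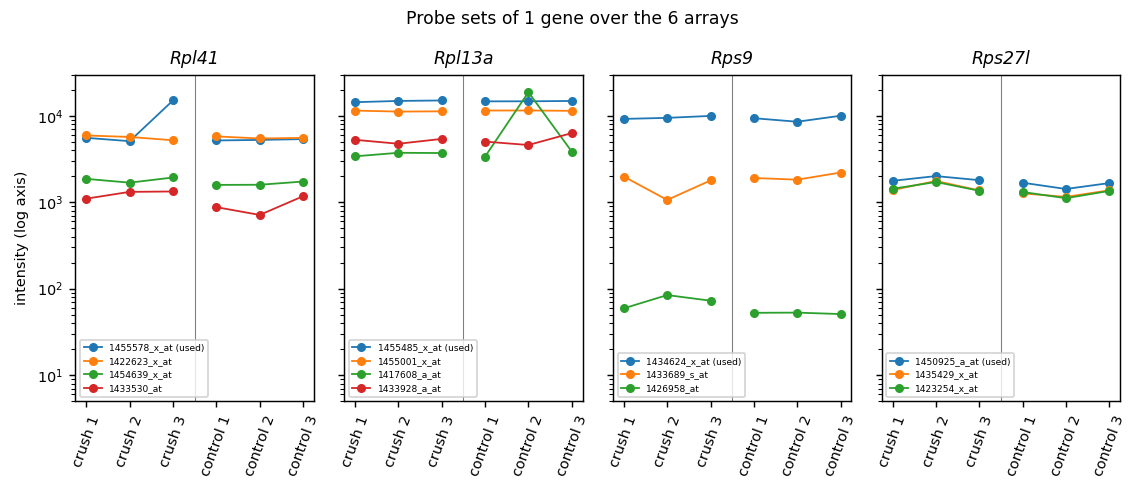
Intensity (log axis) of every tested probe set of Rpl41, Rpl13a, Rps9 and Rps27l on the arrays of 3 crush and 3 control eyes. Single values of 15038 (Rpl41, crush eye 3) and 18745 (Rpl13a, control eye 2) leave the line of their probe set, whereas the 3 probe sets of Rps27l run in parallel.

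Over the 98 tested probe sets of members, the array farthest out lay at a median of 1.09 times its nearest neighbour, and 5 probe sets passed 1.5 times, of Rpl13a, Rpl41, Rps9, Rpl7l1 and Rps2. The probe sets of Rps9 ran from -0.34 to 0.45 in log2 fold change. The dimmest had 59.2, 84.3 and 72.6 in crush eyes, against 52.6, 52.9 and 50.9 in control eyes, and was called higher (limma unadjusted p = 0.0353). The brightest had 9202, 9460.3 and 9967 in crush eyes, against 9376, 8534 and 10003 in control eyes, with the groups overlapping. Rpl35 had 6 probe sets, all with a positive log2 fold change. Rpl41, Rps9, Rpl35 and Rps2 were chosen after their values were seen. Probe sets that can bind related sequences, as the suffix of these identifiers can mean, cannot tell a ribosomal protein gene from its processed copies.

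The balance of the subunits and their share of the signal were compared per array. The 46 genes gave 0.901% ± 0.015 of the summed intensity in crush eyes, against 0.921% ± 0.037 in control eyes (SD, n = 3 per group). The summed intensity of large over small subunit genes was 0.942, 0.913 and 1.02 in crush eyes, against 0.938, 0.934 and 0.946 in control eyes. Crush eye 3 was the highest of all, and with Rpl41 left out the ratios were 0.907, 0.878 and 0.916 in crush eyes, against 0.905, 0.900 and 0.913 in control eyes, and the groups overlapped. The control probe sets for 18S ribosomal RNA, the RNA of the small subunit, had 2620 ± 550 at the 3′ end in crush eyes, against 3130 ± 93.0 in control eyes (SD, n = 3 per group). In the middle of the RNA they had 4046 ± 365 in crush eyes and 4312 ± 200 in control eyes. Ribosomal RNA is reached only in part by an amplification from poly(A) tails, so these values describe the arrays and not the amount of ribosomes.

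Other genes of ribosome production and translation were counted beside the members. Fau, which encodes a further small subunit protein fused to a ubiquitin-like protein, had 5034, 4523 and 4200.3 in crush eyes, against 4673, 5302 and 4531 in control eyes, with a log2 fold change of -0.077 and overlapping groups. Of 76 mitochondrial ribosome genes 0 passed an unadjusted p under 0.05 in limma in either direction, with a median log2 fold change of -0.042, and 59 of 76 were lower in pair 3, at a median of -0.13 there. The 46 initiation factors had 0 calls and a median of -0.037, the 15 elongation and termination factors 0 calls and -0.041, and the 17 genes of RNA polymerase I transcription 0 calls and -0.050. Among 30 genes of TOR and S6 kinase signaling 0 were called and the median was -0.051. Mtor itself, the kinase of the pathway, chosen after its values were seen, had 3358, 2369 and 3322 in crush eyes, against 3271, 2863 and 3142 in control eyes, with the groups overlapping.

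Of 73 ribosome assembly genes 1 was called higher and 2 lower, at a median log2 fold change of -0.032. Of all tested probe sets 5.16% were called higher and 2.51% lower. The assembly factor Ppan had 222.5, 292 and 243 in crush eyes, against 154, 256 and 139 in control eyes, and was higher in every pair (log2 fold change 0.51, limma unadjusted p = 0.0299, adjusted p = 0.642). Rrp12 had 99.7, 59.0 and 56.4 in crush eyes, against 114, 106 and 80.0 in control eyes, at -0.51 (unadjusted p = 0.0309). Rrp15 had 98.6, 56.2 and 57.2 in crush eyes, against 145, 166 and 74.7 in control eyes, at -0.83 (unadjusted p = 0.0229). Groups overlapped in all 3 genes. Other TOP mRNAs, those of translation factors and a few further proteins, had a median of -0.12, with 17 of 19 lower, 0 called lower and 1 called higher. Of the 5887 other genes with a mean of at least 1000, 56.8% were lower. That 1 was Hnrnpa1, an RNA-binding protein, with 1972, 2349 and 2568 in crush eyes, against 1661, 1823 and 1409 in control eyes. Every crush eye lay above every control eye, at a log2 fold change of 0.49 (limma unadjusted p = 0.0364, adjusted p = 0.642). The median of the other TOP mRNAs was -0.0080, -0.27 and -0.060 in pairs 1, 2 and 3, and the array of crush eye 2 is the one that stood apart.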

How the data were processed

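Gene expression was measured on 6 Affymetrix Mouse 430 version 2 arrays, 1 per eye. The deposited intensities, on a linear scale, come from dChip, where the authors used invariant-set normalization and a model of perfect-match and mismatch probes. A floor of 16 was set before the log2 was taken. Probe sets whose 6 arrays averaged at least 40 (33169) entered a fit in limma 3.58.1 (R 4.3.3), in which the eye number was a block, followed by Benjamini-Hochberg adjustment. The 64 Affymetrix control probe sets were left out. Eyes with the same number were taken as the 2 eyes of an animal because the methods used a paired test. The sample titles number the eyes and do not name animals. Deviations from the group means correlated at 0.154, 0.125 and 0.297 for eyes with the same number. For eyes with different numbers they correlated at -0.264 to 0.131. The highest of these, crush eye 1 with control eye 2, lay above pair 2, so the pairing stays an inference. Symbols came from the platform's annotation, in which 34945 probe sets had 1 symbol, 932 several (not named here) and 9160 none.

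Genes named were called members (up to 6 per direction), the 3 brightest and 3 dimmest of each subunit, genes fixed by role (16 of 27 measured), Fau, and up to 3 called genes of each other list. Members and lists were chosen with earlier results of these data known. The calculation was tested on simulated data. Alternatives covered the block, floor, intensity minimum, scaling, prior, test, probe set choice, paralogs and single eyes.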

Additional observations from a re-analysis of the deposited data

How the results depend on the processing

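The median log2 fold changes of both subunits were below 0 under every alternative run, from -0.085 to -0.0077 for the large and from -0.076 to -0.010 for the small subunit. The median of all tested probe sets moved too. On quantile-normalized arrays it was -0.0080, against -0.0077 for the large and -0.013 for the small subunit. On arrays scaled to one median it was -0.050, against -0.078 for the large and -0.076 for the small subunit. Of 381 values of named genes under alternatives 374 kept their side of the threshold, and no call changed direction. Among values that were not called the sign did change, in 45 values of 15 genes, as for Rplp0 (0.057, and -0.23 without pair 2), Rps19 (-0.24 without pair 2) and Rpl13a (-0.79 without _x_at and _s_at probe sets). Further, 5 calls of Rps25 were lost, and 1 call each was gained for Rpl7l1 (without pair 1) and Rps4x (no filter on the mean). The number of members called higher was 0 on quantile-normalized arrays and on arrays scaled to one median, and 2 without _x_at and _s_at probe sets or with every probe set counted. Members called lower numbered 2 with no filter on the mean (Rps14 and Rps4x) and 2 with an intensity trend and robust prior (Rpl37a and Rps3a1). By the methods' t-test they numbered 2 as well (Rps14 and Rps20). Leaving out a pair or a crush eye gave 0 to 1 called higher, 0 to 1 called lower, 4 to 14 higher in all remaining pairs (14 without pair 3) and 16 to 22 lower in all remaining pairs (22 without pair 1). By the mean over a gene's probe sets 5 were higher in all pairs, and with every probe set counted 7 were higher and 25 lower. The large minus small subunit median, -0.0022, was -0.028 by the mean over probe sets, -0.060 without _x_at and _s_at probe sets, 0.012 without paralogs and -0.025 to 0.017 when eyes were left out. Over the whole array 2546 probe sets passed an unadjusted p under 0.05, 1671 by the methods' t-test and 1551 to 2696 when eyes were left out, and 1 passed an adjusted p with the trend and robust prior. With no replicate block for the pairing, 2082 passed and the same 1 member was called, Rps25, with a limma unadjusted p of 0.0158. Rps27 and the dim probe set of Rps9 had low signal, so their values call for caution, and that probe set of Rps9 was called higher. The cause of these shifts was not tested. The count over probe sets with several symbols, the ratio without Rpl41 and the split at a mean of 5000 were added after seeing the data.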

Other observations

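Ribosomal protein genes also stand on probe sets that the annotation gives several symbols, often a gene and its processed copies, and these were not named. Of 106 such probe sets tested, 83 were lower after crush and 23 higher, with a median log2 fold change of -0.061 that ran from -0.50 to 0.72, and 1 was called higher and 0 lower at a limma unadjusted p under 0.05. In pair 3, 85 of 106 were lower, with a median of -0.090, and in pair 1 the median was 0.011. The array of control eye 3 held the highest value of 40 of them. The other 52 tested probe sets of the 46 members had a median of -0.036, with 33 lower, and in pair 3 41 of 52 were lower. These probe sets share genes and arrays with the members and are no independent sample of eyes.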
